A study of Mus musculus with 2 samples.

Results

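The classical effector genes of the ATF4 stress response examined here were Trib3, Chac1, Sesn2, Ddit4, Nupr1, Stc2, Gdf15, Fgf21, Vegfa and Vldlr. These 10 genes were chosen by name, out of 21887 protein-coding genes, with earlier results of these data known. Each was assigned the ATF4 peaks with a summit between 10 kb before its first and 10 kb after its last base. Binding of ATF4 was profiled with CUT&Tag, in which an antibody bound to chromatin directs a transposase that cuts and tags the DNA around it. The cells were primary neurons of C57BL/6 mouse embryos (tissue, Cortex and hippocampus), taken at embryonic day 16 to 18 and cultured for 5 to 7 days, and about 100000 cells went into each library. The first group received the ATF4 antibody (CST) and the other an IgG control antibody, with 1 library each, and only the ATF4 library was analysed here. The labels describe both groups as primarily neurons, which a list of peaks cannot check, because it holds no expression of marker genes. The sources used here do not state whether the cells of these libraries were treated with hemin, the blood breakdown product used as a stressor elsewhere in the study.

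ATF4 is the central transcription factor of the integrated stress response. Kinases that sense endoplasmic reticulum stress, amino acid shortage, heme deficiency or viral RNA phosphorylate the translation factor eIF2, which lowers general protein synthesis and favours translation of the Atf4 messenger RNA. ATF4 then binds, as a dimer with other basic leucine zipper proteins, to composite elements that join a C/EBP and an ATF site, and it is best known for activating genes of amino acid supply together with effectors that slow growth, alter redox balance or signal to other cells. In neurons this pathway is known from studies of hemorrhage, ischemia and neurodegeneration.

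At least 1 peak was assigned to 9 of the 10 effector genes, where 24.8% of all protein-coding genes had one. The exception was Fgf21. The highest peaks were those of Chac1, Vegfa and Stc2, with 29, 27 and 21 DNA fragments at the summit, against a median of 4 fragments over the 7873 peaks of the library. At the other end, Sesn2 and Ddit4 had 7 and 6 fragments at their highest peaks. The single library gives neither a spread between replicates nor a test between conditions, so the intervals given below are exact Poisson 95% intervals, which cover counting error only.

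A sequence that matters for these genes is the ATF4 core, TGATGNAA, searched on both strands. The 250 bases before the transcription start are shown for 5 genes that differ in motif and peak. Chac1, Nupr1 and Fgf21 each hold the core, although Fgf21 has no peak. Trib3 holds the related octamer TGGTGCAA here, and its core lies just after the start, outside the stretch shown. Stc2 has a high peak at a promoter without either octamer. All are from RefSeq, build GRCm38.p6, read 5′ to 3′ in the direction of transcription, and capitals mark the octamer. The regions are chr2:119350992-119351241 on the plus strand for Chac1, and on the minus strand chr7:126625471-126625720 for Nupr1, chr7:45615491-45615740 for Fgf21, chr2:152344061-152344310 for Trib3 and chr11:31370062-31370311 for Stc2.
Chac1: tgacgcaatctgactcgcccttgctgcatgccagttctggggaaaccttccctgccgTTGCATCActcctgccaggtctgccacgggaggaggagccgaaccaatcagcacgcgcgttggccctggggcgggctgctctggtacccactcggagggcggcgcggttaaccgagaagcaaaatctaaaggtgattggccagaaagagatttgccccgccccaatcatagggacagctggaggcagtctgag
Nupr1: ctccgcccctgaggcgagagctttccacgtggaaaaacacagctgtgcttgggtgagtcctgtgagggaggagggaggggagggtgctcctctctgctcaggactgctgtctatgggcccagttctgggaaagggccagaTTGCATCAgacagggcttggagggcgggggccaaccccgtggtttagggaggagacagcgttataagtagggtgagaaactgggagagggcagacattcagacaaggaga
Fgf21: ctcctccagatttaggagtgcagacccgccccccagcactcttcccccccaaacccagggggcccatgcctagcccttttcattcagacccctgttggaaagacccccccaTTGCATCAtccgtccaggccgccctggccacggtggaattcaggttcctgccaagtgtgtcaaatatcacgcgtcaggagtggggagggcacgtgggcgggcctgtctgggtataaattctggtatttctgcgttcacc
Trib3: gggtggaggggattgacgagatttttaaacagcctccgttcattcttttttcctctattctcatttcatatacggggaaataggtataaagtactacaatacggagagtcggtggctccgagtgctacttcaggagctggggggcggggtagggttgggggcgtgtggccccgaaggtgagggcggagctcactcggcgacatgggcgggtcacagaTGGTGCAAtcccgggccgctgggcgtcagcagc
Stc2: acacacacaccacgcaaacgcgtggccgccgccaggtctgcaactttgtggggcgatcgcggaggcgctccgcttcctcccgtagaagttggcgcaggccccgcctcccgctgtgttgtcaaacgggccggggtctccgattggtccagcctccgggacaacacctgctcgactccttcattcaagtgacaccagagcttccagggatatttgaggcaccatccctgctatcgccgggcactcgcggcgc

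Among the effectors that act inside the cell, Chac1 had the highest peak. It encodes an enzyme that degrades glutathione, the main thiol antioxidant of the cytosol. Chac1 (gene ID 69065, chr2:119351242-119354326, plus strand) carried 1 peak, at chr2:119350589-119351267, which was 679 bp wide with its summit 181 bp before the transcription start. The summit held 29 fragments (95% interval 19.4 to 41.6) against an estimated background of 1.74. The authors' peak caller gave it a fold enrichment of 10.9 and a q-value of 1.21e-21, which placed it at rank 126 of 7873 by q-value. The core TTGCATCA printed above lies inside this peak, with its first base 193 bp before the start and its centre 8.5 bp from the summit.

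Trib3 had 3 peaks, and the highest was not at its start. Trib3 (gene ID 228775, chr2:152337425-152344060, minus strand) encodes a pseudokinase that binds AKT and ATF4 itself and restrains ATF4 activity in a negative feedback. Its peak at the start, chr2:152343659-152344176, had a summit 62 bp inside the gene with 9 fragments (4.12 to 17.1), a fold enrichment of 6.23 and a q-value of 8.35e-06. A peak 6.04 kb upstream, chr2:152349823-152350124, had 15 fragments (8.40 to 24.7), a fold enrichment of 9.92 and a q-value of 5.21e-13. The intervals of these 2 peaks overlap. The upstream peak lies inside the long noncoding RNA gene Gm14164, and an end of the pseudogene Gm14165, at 3445 bp, is nearer to its summit than Trib3 is. By contrast, the third peak, with 5 fragments, lies 5051 bp past the end of Trib3 and 51 bp from a transcription start of Rbck1, so it is shared with that neighbour. The start-site peak holds the core as TTACATCA, 15 bp after the start, and the TGGTGCAA printed above, 33 bp before it.

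Sesn2 and Ddit4, both of which encode inhibitors of the growth kinase complex mTORC1, had highest peaks below those of the other effectors with a peak. These were still above the median of 4 fragments over all peaks, at ranks 946 and 1337 of 7873 by fragments. SESN2 acts as a leucine sensor upstream of mTORC1, and DDIT4, also called REDD1, acts through the TSC complex. Sesn2 (gene ID 230784, chr4:132492804-132510456, minus strand) had a peak at chr4:132509881-132510094, 452 bp inside the gene, with 7 fragments (2.81 to 14.4), a fold enrichment of 5.04 and a q-value of 0.000535. A second Sesn2 peak, 5.16 kb upstream, had 6 fragments and lies 397 bp from a transfer RNA gene, n-TAagc8. The strongest Sesn2 neighbour fell outside the window: a peak 16.6 kb upstream, chr4:132526811-132527100, had 12 fragments (6.20 to 21.0), a q-value of 3.61e-12 and rank 303, and the nearest protein-coding gene to it is Atpif1, at 3539 bp.

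Ddit4 (gene ID 74747, chr10:59949675-59951770, minus strand) had its highest peak on the start itself. The summit of chr10:59951622-59951789 lay 40 bp inside the gene, with 6 fragments (2.20 to 13.1), a fold enrichment of 4.46 and a q-value of 0.00372. By q-value this is rank 4272 of 7873, in the lower part of the list, but it is rank 3533 by fold and 1337 by fragments. The other Ddit4 peaks lay 6.28 kb upstream and 6.66 kb past the end of the gene, each with 3 fragments, which is the lowest number found at any peak of the library. The latter was also the farthest peak inside the 10 kb window for any of the 10 genes.

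Nupr1 encodes a small chromatin-associated protein that is induced by many kinds of cell stress. Nupr1 (gene ID 56312, chr7:126623246-126625470, minus strand) had 1 peak, at chr7:126625485-126625708, with its summit 148 bp before the start. It held 10 fragments (4.80 to 18.4), with a fold enrichment of 6.93, a q-value of 5.56e-07 and rank 909. The core in the sequence above lies inside the peak, 110 bp before the start, and its centre is 41.5 bp from the summit. The summit also lies inside a long noncoding RNA gene, Gm39087.

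The secreted effectors ranged from some of the highest peaks to none. Stc2 encodes stanniocalcin 2, a secreted glycoprotein, and had a pair of peaks that flank its start. Stc2 (gene ID 20856, chr11:31359441-31370061, minus strand) had 21 fragments (13.0 to 32.1) at a summit 584 bp inside the gene, in the peak chr11:31368935-31369691, with a fold enrichment of 10.1 and a q-value of 6.48e-16. The peak chr11:31370207-31370378 held 16 fragments (9.15 to 26.0) at a summit 218 bp before the start, with a q-value of 4.41e-10. Neither octamer occurs in the Stc2 promoter sequence printed above, which the upstream summit falls in. Summed over its peaks, Stc2 had 37 fragments at summits, beside 29 each for Chac1 and Trib3. Of the fragments of Trib3, only 9 were at its own start. No interval was computed for these sums.

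Vegfa encodes the main growth factor of blood vessel formation. Vegfa (gene ID 22339, chr17:46016993-46032377, minus strand) had 1 peak, at chr17:46030417-46031100, inside the gene and 1532 bp from its start, so no Vegfa peak lay within 1 kb of a start. Its summit held 27 fragments (17.8 to 39.3), with a fold enrichment of 8.91 and a q-value of 5.41e-17, rank 182. The estimated background here, 2.14 fragments, was the highest at any of the peaks assigned to these genes, and the fold enrichment ranked lower, at 327.

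Gdf15 encodes a hormone of the TGF-beta superfamily that acts on a receptor of the hindbrain to lower food intake. Gdf15 (gene ID 23886, chr8:70629393-70632470, minus strand) also had its higher peak inside the gene, chr8:70630724-70630969, 1560 bp from the first of its 2 annotated starts and 1199 bp from the nearer one. That summit held 11 fragments (5.49 to 19.7), with a fold enrichment of 8.28 and a q-value of 2.43e-09. The other peak lay 4.48 kb upstream, inside the noncoding gene Gm34154, with 4 fragments and a q-value of 0.000301. Neither Gdf15 nor Vegfa holds the core in its promoter window.

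Fgf21 encodes a secreted metabolic hormone, made mainly by liver, that acts on receptors which require the coreceptor beta-Klotho. Fgf21 (gene ID 56636, chr7:45613890-45615490, minus strand) had no peak inside it or within 10 kb, although its promoter holds TTGCATCA, 139 bp before the start. The nearest peaks were 24.4 kb away toward lower coordinates, with 7 fragments (2.81 to 14.4) and a q-value of 5.67e-06, and 28.3 kb away toward higher coordinates, with 7 fragments and a q-value of 1.5e-06. The first of these lies 197 bp from an end of Bcat2, and the nearest protein-coding gene to the second is Mamstr, at 4383 bp. The file lists only peaks that passed the caller's threshold, so a lower signal at Fgf21 would not be seen.

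Vldlr, the only receptor among the 10 genes, encodes a lipoprotein receptor that in neurons also binds reelin, a protein that guides neuronal migration. Vldlr (gene ID 22359, chr19:27216480-27254231, plus strand) had 1 peak, chr19:27216462-27217239, which at 778 bp was the widest of the 10 genes and rank 64 of 7873 by width. It was not high beside most of the other effectors, though above the median of 4 fragments over all peaks. The summit, 233 bp after the first start, held 8 fragments (3.45 to 15.8), with a fold enrichment of 5.49 and a q-value of 0.000129. The peak spans both annotated starts, and the core lies inside it, 200 bp before the second start and 106.5 bp from the summit. This 30-base stretch of GRCm38.p6, chr19:27216809-27216838 on the plus strand, shows that core in capitals.
Vldlr: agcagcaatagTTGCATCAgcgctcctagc

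**Figure D1:**
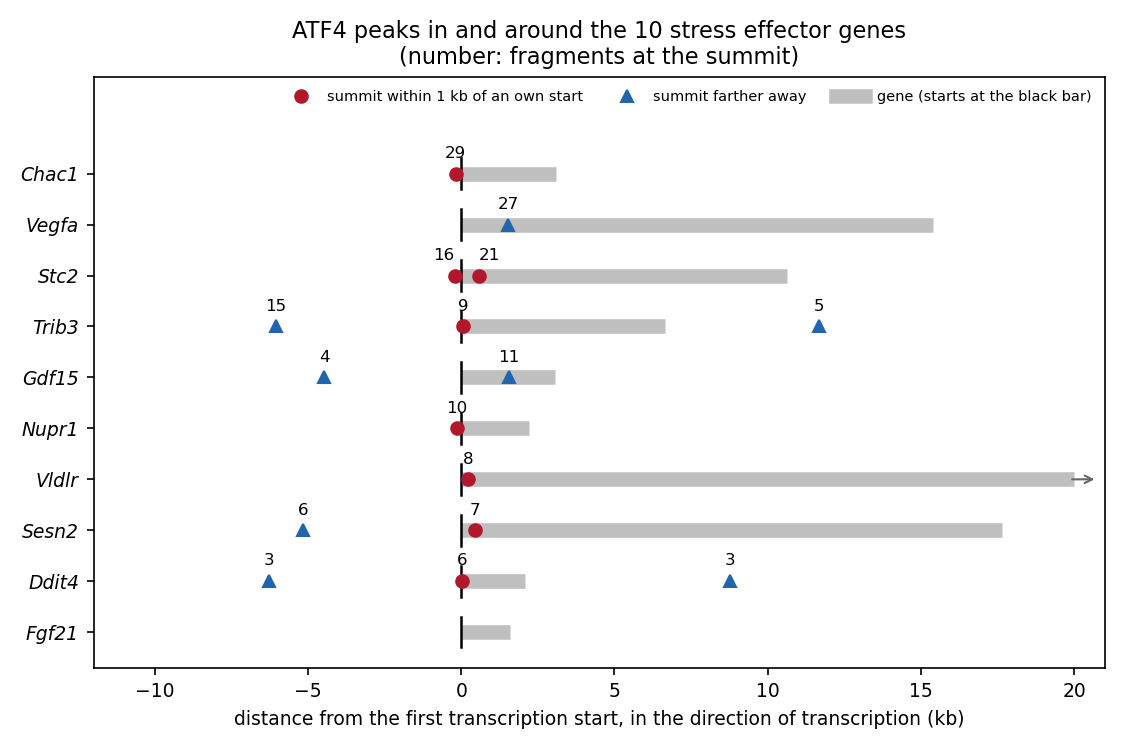
Positions of ATF4 peak summits around the 10 effector genes, in kb from the first transcription start in the direction of transcription; circles are summits within 1 kb of an own start, triangles are farther away, grey bars are the genes, and numbers are fragments at the summit. Chac1 has a single peak of 29 fragments at its start, the highest peaks of Vegfa and Gdf15 lie inside the gene, and Fgf21 has none.

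Over the 10 genes there were 16 peaks, with 4 genes holding 1 peak, 3 holding 2 and 2 holding 3. Having 2 or more peaks was found for 5 of the 10 genes and for 5.04% of all protein-coding genes. Of the 16 summits, 7 lay inside the gene, 7 upstream and 2 past its end. A peak within 1 kb of an own transcription start was found for 7 of the 10 genes (all with a peak except Vegfa and Gdf15), where 8.20% of the 17492 protein-coding genes with an annotated start had one. The 8 peaks at own starts had a median of 9.5 fragments and a median width of 371 bp. Over all 1428 peaks within 1 kb of any start, these medians were 5 fragments and 262 bp. The 8 farther peaks of the effectors had a median of 5.5 fragments. The effector genes are short, with a median length of 4.86 kb against 17.2 kb over all protein-coding genes. Among genes no longer than Vldlr, the longest of the 10, the share with a peak was 19.5%.

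Ordered by fragments at the highest peak, the genes ran Chac1, Vegfa, Stc2, Trib3, Gdf15, Nupr1, Vldlr, Sesn2 and Ddit4. None of the 8 neighbouring pairs in this order had intervals that were apart. Of the 36 pairs, 7 were apart: Chac1 was above Nupr1, Vldlr, Sesn2 and Ddit4, and Vegfa was above Vldlr, Sesn2 and Ddit4. Intervals of the other pairs overlap, which does not show that their peaks are of equal height. The strongest peaks of 5 genes, from Chac1 to Gdf15, were among the 500 of 7873 peaks with the smallest q-values. The share of all genes with such a peak was not computed. By q-value, those of Nupr1, Vldlr, Sesn2 and Ddit4 were at ranks 909, 2229, 3178 and 4272. By fragments they were at ranks 476, 709, 946 and 1337, which puts Nupr1 among the first 500 too. The place of Trib3 rests on its upstream peak, which lies nearer to Gm14165. The peak at its own start, with 9 fragments, was at rank 1415 by q-value.

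**Figure D2:**
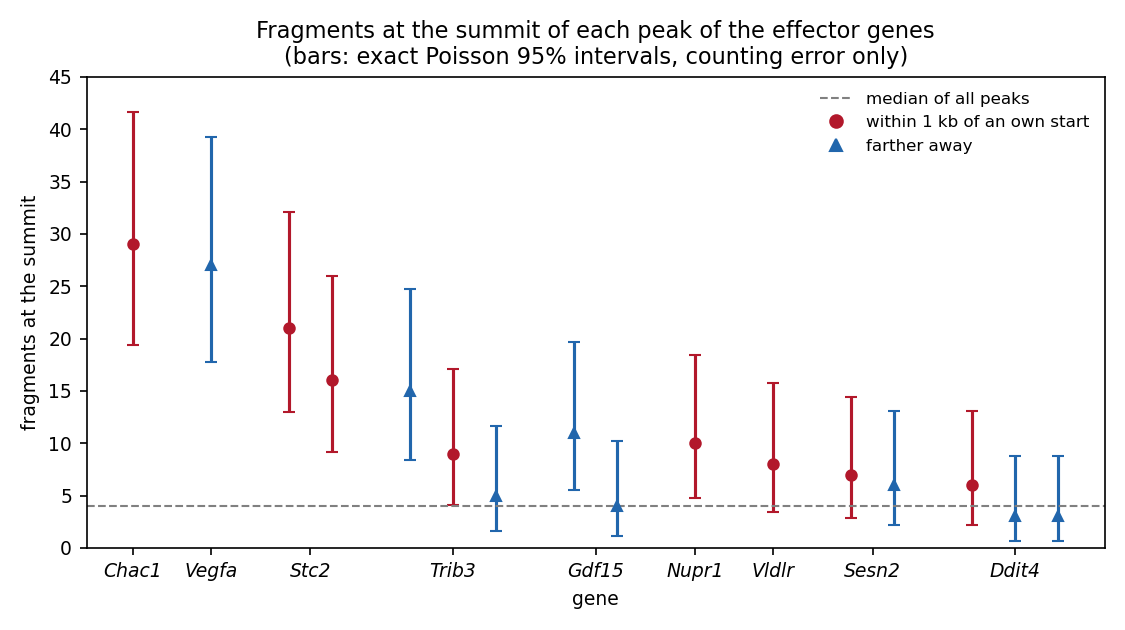
Number of fragments at the summit (vertical axis) of each peak assigned to the effector genes, with exact Poisson 95% intervals; circles are peaks within 1 kb of an own start, triangles are farther, and the dashed line is the median of all peaks, 4. The interval of the 29 fragments of Chac1, from 19.4 to 41.6, lies above those of Vldlr, Sesn2 and Ddit4, and overlaps those of Vegfa and Stc2.

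Stricter definitions of a peak rest on the same fragments and q-values as this order. With a q-value of 1e-05 or smaller, given in the plot of ranks as a -log10 q of 5 or more, 6 of the 10 genes kept a peak, against 6.21% of all protein-coding genes, and Sesn2, Ddit4 and Vldlr lost theirs. With at least 20 fragments at the summit, only Chac1, Stc2 and Vegfa, 3 of the 10 genes, kept one, against 0.891% of all protein-coding genes. Of the 16 peaks, 5 were over 500 bp wide (Vldlr, Stc2, Vegfa, Chac1 and Trib3), where 3.94% of all peaks were that wide. The estimated background at the 16 summits had a median of 0.587 fragments, above the 0.207 of peaks within 1 kb of any transcription start, and the part that background plays in the order of the genes was not tested.

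**Figure D3:**
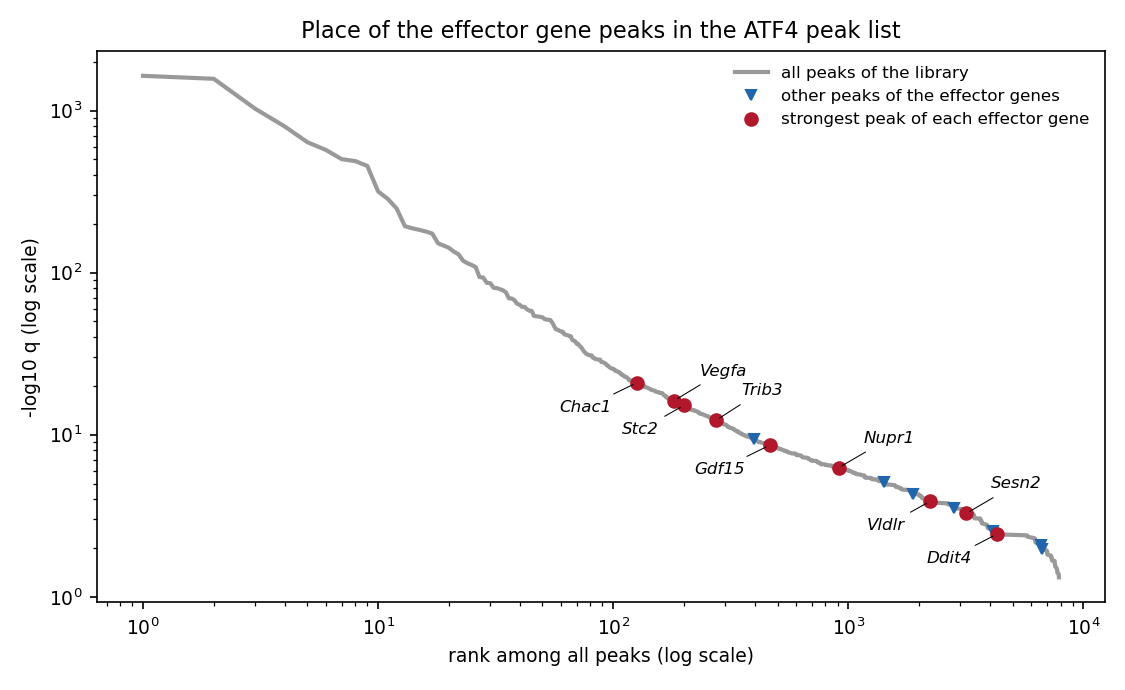
Negative log10 of the q-value against rank for all 7873 peaks, both on log scales (grey line), with the strongest peak of each effector gene as a labelled circle and their other peaks as triangles. Chac1 at rank 126 leads the 9 genes with a peak and Ddit4 at rank 4272 is the last of them.

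The core motif TGATGNAA, searched on both strands in the 300 bases from 250 before to 50 after each start, was found for 5 of the 10 genes, Chac1, Nupr1, Trib3, Vldlr and Fgf21, where 4.13% of protein-coding genes hold it. In 4 of these the match is the strict form TGATGCAA, and only Trib3 has TGATGTAA. The match lies inside a peak at all except Fgf21. Sesn2, Ddit4, Stc2, Gdf15 and Vegfa have no match, which says only that these letters are not in the window searched. The octamer TGACGTCA, the cyclic AMP response element to which other factors of the ATF and CREB family bind, occurs in none of the 10. It is found in 1.79% of all promoter windows, and for 549 of 27025 genes of any kind, so a count of 0 is near the background share.

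Across all promoter windows with a summit, the share that holds the core was highest at the highest peaks. It was 3.92% of the 32130 windows without a summit, 0.629% (Clopper-Pearson 95% interval 0.0763 to 2.25) of the 318 with 3 to 5 fragments, 5.91% (3.27 to 9.71) with 6 to 9, 7.02% (3.08 to 13.4) with 10 to 19, and 42.3% (28.7 to 56.8) of the 52 with at least 20. These 52 windows came from 46 genes, and the intervals treat windows of the same gene as independent. Among the effectors, a summit fell within the promoter window at Chac1 (29 fragments), Stc2 (16), Nupr1 (10) and Ddit4 (6). Of these, Chac1 and Nupr1 hold the core. At Trib3 and Vldlr the core lies inside the peak but the summit is outside the window, and at Fgf21 the core has no peak. The share with the cyclic AMP response element was 1.73% without a summit, 5.03% with 3 to 5 fragments, 5.49% with 6 to 9 and 2.63% with 10 to 19, and 0 of 52 windows held it with 20 or more, which allows a share of up to 6.85%.

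**Figure D4:**
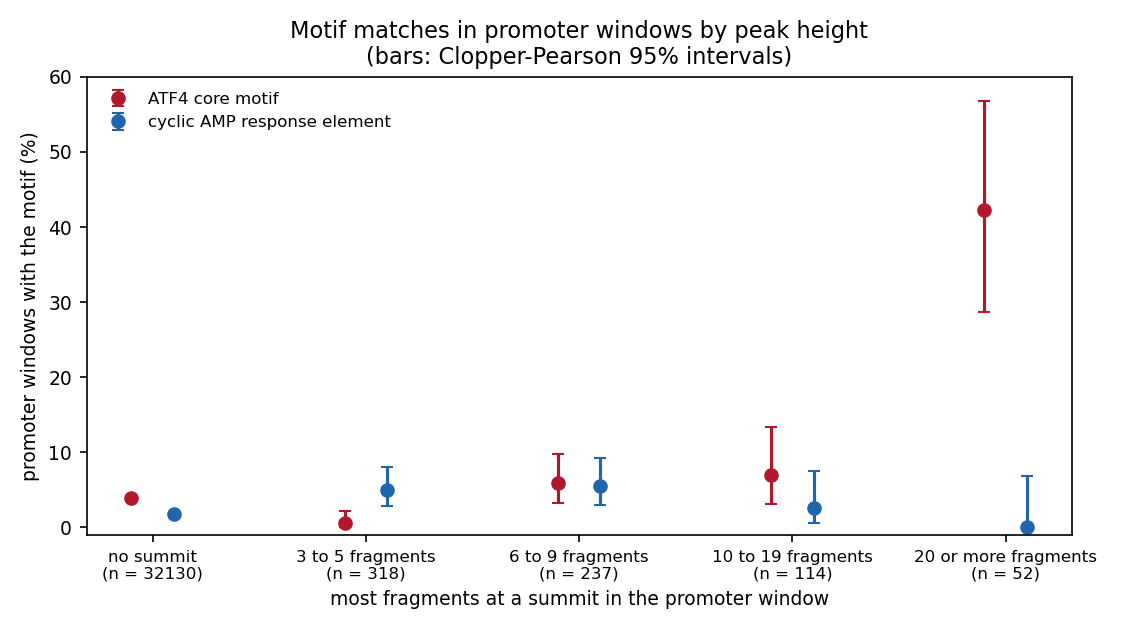
Share of promoter windows (%) that hold the ATF4 core or the cyclic AMP response element, by the most fragments at a summit in the window; bars are Clopper-Pearson 95% intervals. The share with the core is 42.3% at 20 or more fragments and 7.02% or lower in the other classes.

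The other genes of the pathway were set beside the effectors with the same window. Of 27 pathway genes, 19 had a peak (70.4%, beside 24.8% of all protein-coding genes), all 19 also at a -log10 q of 5 or more (beside 6.21%), and 12 (44.4%, beside 0.891%) had at least 20 fragments. A peak was listed at 13 of the 14 genes of amino acid supply, the exception being Cth. None of the 4 eIF2 kinases had one, which in so short a list is near the background share. The eIF2 phosphatase regulator Ppp1r15b, whose product recruits the phosphatase that reverses eIF2 phosphorylation, had the highest of the pathway peaks, with 210 fragments, a fold enrichment of 16.7 and rank 17, and the amino acid transporter Slc7a5 had 118 fragments and the proline synthesis enzyme Aldh18a1 had 105. Among the transcription factors, 5 of 7 had a peak, with 61 fragments at Ddit3 (CHOP), 21 at Atf3 and 17 at Cebpg, and none was listed at Atf4 or Cebpb. The highest effector peak, 29 fragments at Chac1, had an interval below that of Ddit3 (46.7 to 78.4) and overlapping those of Atf3 (13.0 to 32.1) and Cebpg (9.90 to 27.2).

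The nearest relatives of these genes were searched in the same way. Of 16 paralogs counted, 2 had a peak (12.5%, beside 24.8% of all protein-coding genes): Sesn1 (relative of Sesn2) and Lrp8 (of Vldlr), with 4 fragments each. None of the 16 had a peak at a -log10 q of 5 or more, beside 6.21% of all protein-coding genes. Counts this small in so short a list are near the background share. The relatives counted for Trib3, Chac1, Ddit4, Nupr1, Stc2, Gdf15, Fgf21 and Vegfa had no peak.

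**Figure D5:**
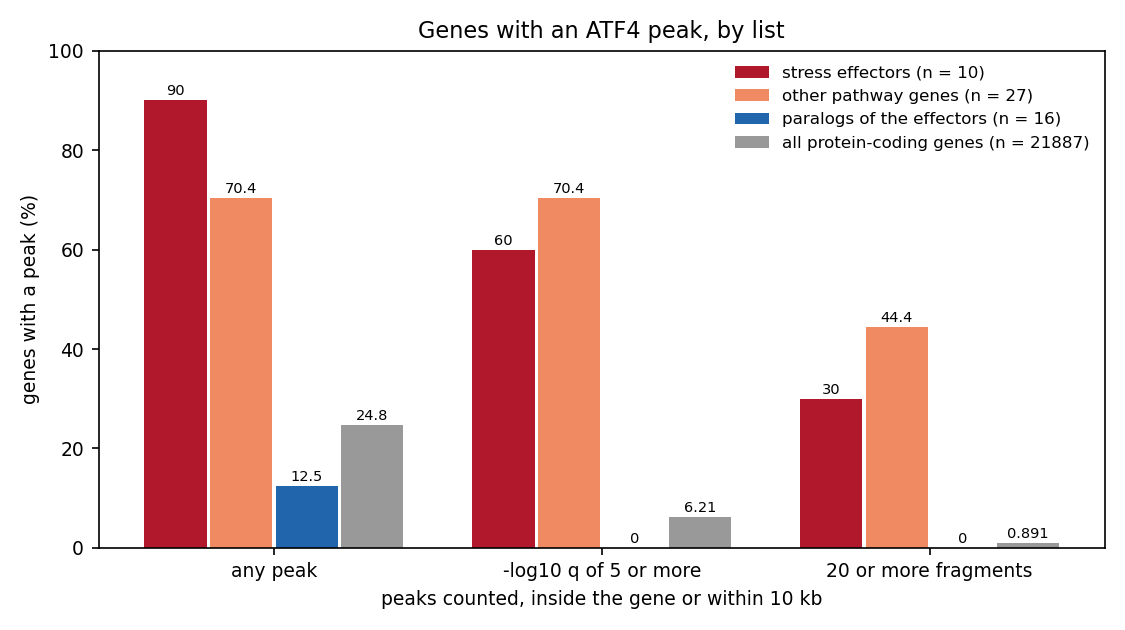
Share of genes (%) with at least 1 ATF4 peak inside the gene or within 10 kb, for the 10 effectors, 27 other pathway genes, 16 paralogs and all 21887 protein-coding genes, counting all peaks, those with a -log10 q of 5 or more, and those with at least 20 fragments. With all peaks counted, 9 of 10 effectors and 70.4% of the pathway genes have a peak. At 20 or more fragments the effectors are at 3 of 10 and the pathway genes at 44.4%.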

How the data were processed

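CUT&Tag libraries for ATF4 and IgG (1 each) came from primary mouse neurons, and only the ATF4 library was analysed here. The authors deposited the peaks called in it, with a fold enrichment (a ratio of fragments to estimated background), the -log10 of the p-value and of the q-value, and a score for display. That score equals the -log10 q multiplied by 10, without its decimals, at all 7873 peaks. Per the labels, the submitters' processing notes name build mm10 and FastQC, BWA, MACS2 2.1.2 and deepTools. The threshold, and whether IgG served as control in calling, are not given in the sources used here, so it is unknown whether the fold is relative to IgG.

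The fragment number of each summit, with its background, was calculated from the fold, read as fragments plus 1 over background plus 1, and the Poisson upper-tail p-value (formulas of MACS2), met within 0.001 in -log10 p. All 7873 peaks were solved and 7838 had exactly 1 solution, among them each peak of the 10 genes. Total depth is unknown from the file. PCR copies are not independent molecules, so intervals (95%, exact Poisson or Clopper-Pearson) cover counting error only. Gene positions, starts and promoter sequences came from RefSeq tables of GRCm38.p6, the assembly of mm10. They hold no exons, so exon, intron and UTR are not given. All 10 genes matched. For the paralog list, 1 gene is not reported here and is left out of its counts.

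Members and lists were chosen with earlier results of these data known. The text names the 10 genes, any neighbour with an end nearer a summit, and up to 3 genes of the pathway and of the paralog lists with the smallest q-values. Further names (Atf4, Cebpb, Cth, Ddit3, Atf3, Cebpg, Bcat2, Mamstr, Atpif1 and the noncoding genes) were chosen after their values were seen, as were the 20-fragment setting, the octamer TGGTGCAA, the motif classes by fragments and ranks among start-site peaks. Alternatives varied the window, the placing of peaks, the threshold, the assignment, the ranking and the motif. Computations used scipy 1.17.1 with numpy 2.4.6, and pandas 2.3.3, in Python 3.11.15. Figures used matplotlib 3.10.9. The steps were checked on simulated data.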

Additional observations from a re-analysis of the deposited data

How the results depend on the processing

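The number of effector genes with a peak stayed at 9 with windows of 3 kb or 20 kb, with any overlap or the peak's midpoint in place of the summit, with peaks at or above the median fold, with at least 6 fragments, and with each peak given to its nearest protein-coding gene. It was 7 within 1 kb of a gene end, without Gdf15 and Vegfa, 6 at a -log10 q of 5 or more, and 3 at 20 or more fragments, a setting chosen after seeing the data, under which 12 of the 27 pathway genes kept a peak. The 2 paralogs with a peak became 1 at or above the median fold and 0 within 1 kb of a gene end, at a -log10 q of 5 or more, at 6 or more fragments and at 20 or more. The share of all protein-coding genes with a peak moved from 24.8% to 8.13%, 6.21%, 8.35% and 0.891% under these, and to 14.9% at or above the median fold. It was 19.4% with the 3 kb window and 31.1% with the 20 kb window. The median rank of the strongest peaks was 463 by q-value, 418 by fold and 425 by fragments. Single genes moved more than this median. From q-value to fragments, Nupr1 went from 909 to 476, Vldlr from 2229 to 709, Sesn2 from 3178 to 946 and Ddit4 from 4272 to 1337. From q-value to fold, Vegfa went from 182 to 327. Among peaks near gene ends the median rank was 478, and among the 1428 near starts it was 460. These are shorter lists that hold peaks of 7 of the genes, with the start-site peak standing for Trib3. Their ranks cannot be set against the others. The core motif count of 5 was 4 for TGATGCAA, 5 with TGGTGCAA added, and 0 for TGACGTCA. In that order, these octamers occur in 0.895%, 0.536% and 1.79% of all promoter windows, and for 279, 174 and 549 of 27025 genes of any kind.

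With 1 library, there was no replicate to leave out. No paired analysis was possible because each antibody has 1 library and no result comes from a test. At 3 to 10 fragments the intervals span more than the differences between neighbouring genes.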
